A study of Mus musculus with 158 samples.

Results

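DNA accessibility was examined at the loci of 9 genes that encode transcription factors of lung lineages: Nkx2-1, Foxj1, Gata6, Tbx2, Tbx3, Tbx4, Tbx5, Foxf1 and Sox17. The 9 loci were chosen by gene name, and each was taken as the annotated gene body (GENCODE, mm10) with 50 kb on both sides, giving 9 windows out of 21755 windows of protein-coding genes on the autosomes and chromosome X. The animals were F1 offspring of C57BL/6J mothers and fathers of 5 other inbred lines, so that every group carries 1 C57BL/6J genome. The hybrids, named for the paternal line, are B6xSPRET (SPRET/EiJ, a different mouse species), B6xPWK (PWK/PhJ) and B6xCAST (CAST/EiJ), whose fathers are wild-derived, and B6xC3H (C3H/HeJ) and B6x129, whose fathers are classical laboratory strains. Whole lung, whole liver and both kidneys of adult mice, typically pooled from several animals, and B cells of the femoral marrow enriched by depletion of CD43 and Mac-1 were profiled by DNase-seq, which cuts accessible DNA. A hotspot is a stretch of significant cutting at a false discovery rate (FDR) of 5%, and the authors called hotspots on the pooled replicates of each tissue and hybrid, which leaves 20 sets (4 tissues by 5 hybrids) with the hybrid as the repeat of a tissue. F1 (B6xCAST) embryonic stem cells (mESC) were profiled by DNase-seq and CTCF ChIP-seq, with 1 set each.

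In the embryo, NKX2-1 marks the patch of foregut endoderm from which the lung epithelium grows, and GATA6 acts in the same endoderm. TBX4 and TBX5, a pair of related T-box activators, are expressed in the mesenchyme around the lung bud and are needed for its outgrowth, and TBX2 and TBX3, T-box repressors, keep that mesenchyme proliferating. FOXF1 acts in lung mesenchyme and capillary endothelium, SOX17 in arterial endothelium, and FOXJ1 in the assembly of motile cilia. Whole lung mixes all of these cells, as well as blood, and in such bulk tissue fewer cells of a type and less accessibility per cell cannot be told apart.

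The 5 lung sets held 152006 to 281978 hotspots over 43.8 to 97.0 Mb, the liver sets up to 128.8 Mb and the B cell sets 29.0 to 68.7 Mb. Coverage was therefore expressed as bp covered in a window per Mb covered in the set, called scaled coverage here. The smallest lung set was that of B6xC3H. As a check of tissue identity, a hotspot lay within 500 bp of the start of 8 of 8 lung markers (surfactant protein, club cell and alveolar type I genes among them) in all 5 lung sets, against 0, 1 and 1 of the 8 in all 5 sets of liver, kidney and B cell. Among genes of other cell types, 4 of 4 endothelial and 2 of 3 mesenchymal markers had a start hotspot in all 5 lung sets, as had 3 of 7 B cell markers and 2 of 4 markers of other leukocytes. In all 5 sets of liver, kidney and B cell, 2, 3 and 2 of the endothelial and 1, 2 and 0 of the mesenchymal markers had one. The B cell markers numbered 1, 1 and 6 in these tissues, and those of other leukocytes 0, 0 and 1. The part of these cells in the lung values below was not tested.

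Of the 9 windows, 7 had higher scaled coverage in lung than in the mean of liver, kidney and B cell (limma, Benjamini-Hochberg adjusted p below 0.05 over 21525 windows), 1 (Foxj1) was lower and 1 (Gata6) did not pass the test. Among all windows tested, 22.3% were called higher and 28.7% lower. The median difference was 0.57 on the log2 scale over the 9 windows and -0.04 over all windows. Ordered by the difference, the Nkx2-1 window ranked 1 and the Tbx5 window ranked 5 of 21525. Sox17 ranked 538 and Tbx3 713, and the windows of Gata6, Foxf1, Tbx4 and Tbx2 ranked 1780 to 2333.

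**Figure D1:**
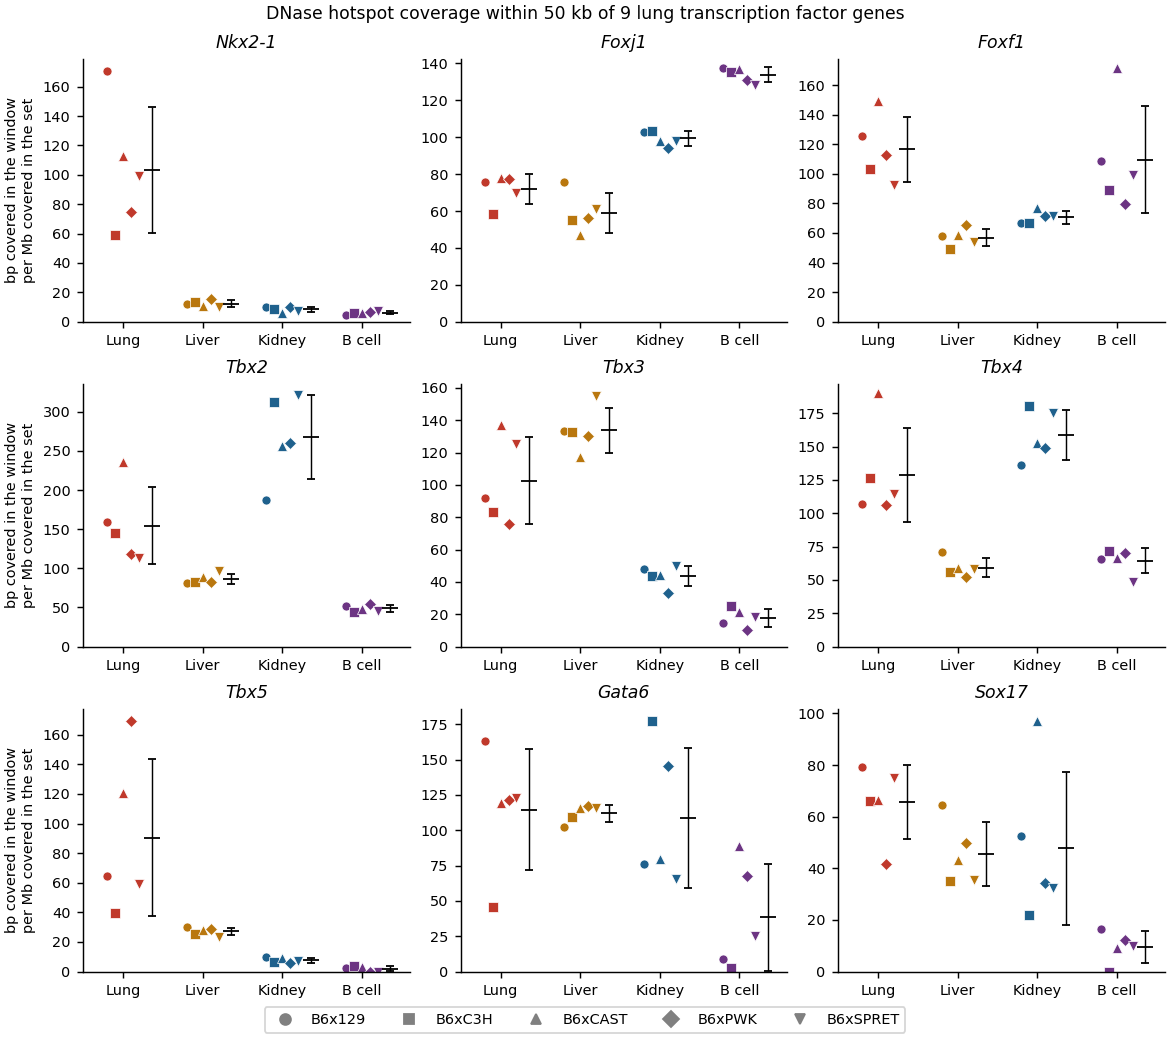
Scaled coverage (bp covered in the window per Mb covered in the set, linear axis from 0) of the 9 windows in the 20 sets, one panel per gene, with the tissue on the horizontal axis, one marker shape per hybrid, and the mean and SD of 5 hybrids beside the points. The lung points of Nkx2-1 (59.1 to 171) and of Tbx5 (39.5 to 169) all sit above every point of the other tissues, whereas the highest points are from kidney for Tbx2 and from B cells for Foxj1.

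Nkx2-1 (ENSMUSG00000001496, chromosome 12, 56531958 to 56536908 of mm10, reverse strand) encodes the homeodomain factor that switches on surfactant genes. In lung its window held 27, 11, 28, 13 and 18 hotspots in B6x129, B6xC3H, B6xCAST, B6xPWK and B6xSPRET, with scaled coverages of 171, 59.1, 113, 75.0 and 99.2. Liver held 3 to 6 hotspots, kidney 2 to 4 and B cells 1 to 2. Mean scaled coverage was 103 ± 42.9 (SD, n = 5) in lung, 12.3 ± 2.29 in liver, 8.37 ± 1.55 in kidney and 6.05 ± 0.98 in B cells, and the lowest lung set lay above the highest of the other 15. The lung difference was 2.52 ± 0.14 (SE) on the log2(scaled coverage + 10) scale (limma adjusted p = 1.31e-11), a scale that understates the change of windows with low coverage. By an exact permutation of the lung label within hybrids, two-sided, p was 0.000977, the smallest that the arrangements can give. Liver against kidney did not pass the limma test (adjusted p = 0.179), nor did kidney against B cell (adjusted p = 0.327). Liver was above B cell by 0.47 (limma adjusted p = 0.0171).

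The start of Nkx2-1 had a hotspot in 5 of 5 lung sets and in 0 of the other 15 sets. Over all 21755 protein-coding genes, 0.322% shared this pattern. Within 2 kb of the start on either side, hotspots covered 1077 to 3741 bp in lung, 0 to 100 bp in liver, 0 bp in all 5 kidney sets and 0 to 46 bp in B cells. In B6xC3H lung this hotspot was 101 bp wide and did not reach FDR 1%. The sequence of this start is shown because, by a hotspot within 500 bp, it is the only one of the 9 that was open in lung alone. It is the RefSeq promoter (GRCm38.p6, the assembly of mm10, chr12:56536859-56537158, reverse strand, 250 bases before and 50 after the start, 5′ to 3′) and holds 12 CpG dinucleotides, against a median of 11 over all starts, 21 over starts open in all 20 sets and 4 over starts open in 1 to 6 sets. None of the 9 motifs searched in the loci (named with the regions) has a match in it, so no capitals are used.
Nkx2-1 start: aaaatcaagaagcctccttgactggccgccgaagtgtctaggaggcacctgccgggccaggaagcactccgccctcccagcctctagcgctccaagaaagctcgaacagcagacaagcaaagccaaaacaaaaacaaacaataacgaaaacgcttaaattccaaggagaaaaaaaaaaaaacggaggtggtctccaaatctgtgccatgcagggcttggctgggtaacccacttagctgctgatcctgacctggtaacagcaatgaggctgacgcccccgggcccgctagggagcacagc
The transcript Nkx2-1-202 starts 1802 bp further downstream, where a hotspot was present in 5 of 5 lung sets, 1 liver set and 1 B cell set.

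Hotspots overlapping across sets were merged into regions, and a region was called lung-only where all 5 lung sets and 0 of the other 15 sets had a hotspot in it. Over the genome 10968 of 745754 regions were lung-only, or 1.47%. The Nkx2-1 window held 3 lung-only regions among 34, 8.82%, and 22 regions with a hotspot in lung sets and in no other tissue, most of which were not shared by all hybrids. The lung-only regions lay 7.2, 21.9 and 49.7 kb downstream of the start, the second in an intron of the pseudogene Sfta3-ps. The first was the widest, with 902 ± 430 bp covered (SD, n = 5), and lies past the 3′ end of the gene, between annotated genes. In contrast, 1 region 4.4 kb upstream, in an exon of the non-coding gene Gm26973, was open in 20 of 20 adult sets and in mESC, and overlapped an mESC CTCF hotspot.

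**Figure D2:**
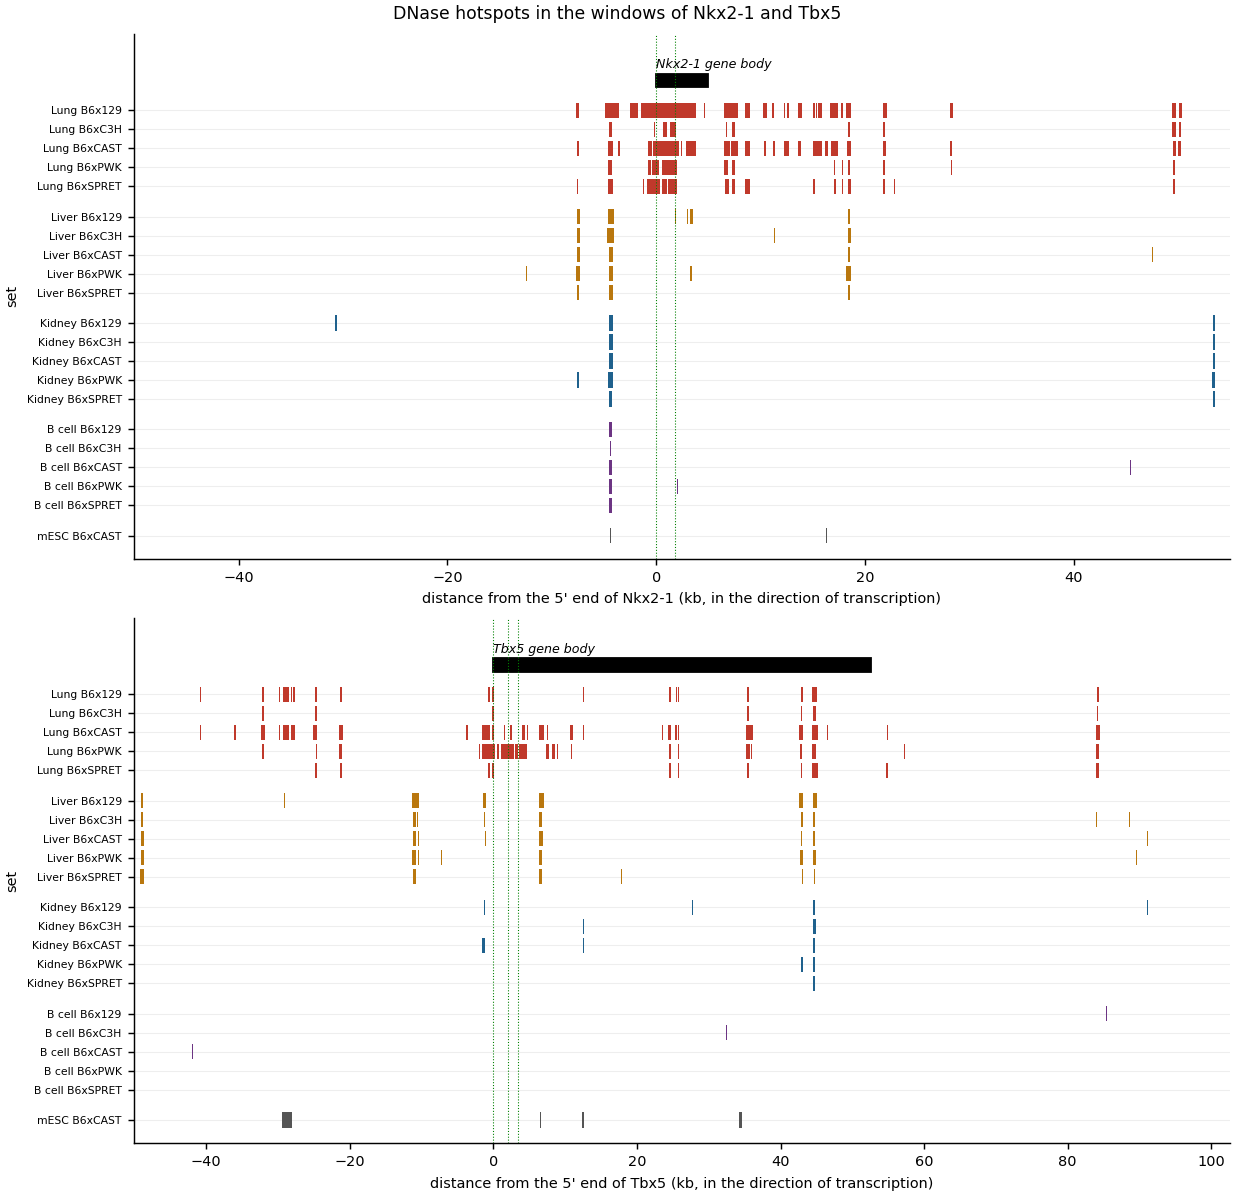
Hotspots (coloured blocks) in the windows of Nkx2-1 and Tbx5 by distance from the 5′ end in kb, one line for each of the 20 adult sets and mESC, with the gene body as a black bar and annotated protein-coding transcript starts as dotted lines. Each lung line carries 11 to 28 hotspots at Nkx2-1, more than any other line, and 9 to 35 at Tbx5, where liver lines carry 6 to 10, and 1 region 4.4 kb upstream of Nkx2-1 is present in every line.

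Gata6 (ENSMUSG00000005836, chromosome 18, 11052064 to 11085635, forward strand), a zinc finger factor of endoderm, heart and other tissues, was open in lung, liver and kidney alike. Scaled coverage in lung was 164, 45.7, 119, 121 and 123 in the order of hybrids given above, so that B6xC3H lung lay below every liver set (102 to 117) while the other lung sets lay above. Kidney ranged from 65.7 to 177 and B cells from 2.66 to 88.6. Lung did not differ from liver beyond the spread (difference -0.06, 95% confidence interval -0.82 to 0.70, limma adjusted p = 0.904) or from kidney (0.07, -0.69 to 0.84, adjusted p = 0.895), and each of the 3 organs was above B cells by 1.61 to 1.75 (adjusted p of 0.000207 to 0.000491). Without B6xC3H the lung difference was 0.77 and passed the test (adjusted p = 0.0171), against 0.57 with it (adjusted p = 0.123). The start had a hotspot in 19 of 20 sets, absent from B cells of B6xC3H, and in liver it was part of a hotspot of 5424 to 7382 bp in all 5 sets. The window held 0 lung-only and 2 liver-only regions, both in an intron of the non-coding gene 1010001N08Rik.

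Foxj1 (ENSMUSG00000034227, chromosome 11, 116330704 to 116335399, reverse strand), the regulator of motile cilia, had its highest scaled coverage in B cells (128 to 137) and kidney (94.4 to 104), and lower values in lung (58.5 to 77.6) and liver (46.7 to 75.9). No B cell or kidney set overlapped the lung range of scaled coverage. Unscaled, mean bp covered were 7784 in kidney, 6522 in B cells, 5827 in liver and 5020 in lung. The order of B cells and kidney, and that of lung and liver, thus depends on the scaling to the set. The lung difference was -0.33 ± 0.08 (limma adjusted p = 0.00142), and B cell exceeded kidney by 0.40, kidney lung by 0.42 and lung liver by 0.25 (adjusted p = 0.000964, 0.00119 and 0.0297). Foxj1 was the only member whose start had a hotspot in all 20 sets, as had 46.5% of all protein-coding starts, and its 300 bases around the start held 30 CpG. The window also overlaps Exoc7, which encodes a subunit of the exocyst, Galr2 and Rnf157. Of 5 regions open in all 20 sets, 1 was at the Foxj1 start, 2 were in Exoc7, 1 in an intron of Rnf157 and 1 between genes. In the gene body with 10 kb on both sides the difference was -0.13 and did not pass (adjusted p = 0.378). A region in an intron of Foxj1, 2.5 kb downstream of the start, was open in 5 of 5 kidney sets, 3 lung sets, 1 liver set and 0 B cell sets. Among markers of ciliated cells, 2 of 4 had a start hotspot in all 5 lung sets, the same number as in liver and kidney.

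The T-box genes lie in a pair of clusters, Tbx2 with Tbx4 on chromosome 11, 44473 bp apart, and Tbx3 with Tbx5 on chromosome 5, 147943 bp apart. The windows of Tbx2 and Tbx4 share 55527 bp and are not independent, whereas those of Tbx3 and Tbx5 do not overlap.

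Tbx5 (ENSMUSG00000018263, chromosome 5, 119832668 to 119885219, forward strand) had scaled coverages of 64.7, 39.5, 120, 169 and 59.2 in lung, 23.7 to 30.1 in liver, 6.07 to 9.86 in kidney and 0 to 3.45 in B cells. As at Nkx2-1, the lowest lung set was above all 15 others in scaled coverage. In unscaled bp, B6xC3H lung (1728) lay below the liver sets (1856 to 3875). The lung difference was 2.19 ± 0.17 (limma adjusted p = 1.42e-09; exact permutation p = 0.000977, the smallest possible), and each step of the order lung, liver, kidney, B cell passed the test (differences of 1.28, 1.07 and 0.60, adjusted p of 1.89e-05, 0.000187 and 0.0150). The start had a hotspot in all 5 lung sets, in kidney of B6xSPRET and in no other set, and the start sequence held 12 CpG, as many as that of Nkx2-1. Transcripts Tbx5-201 and Tbx5-202 start 1995 and 3487 bp further downstream. Each of these 2 places had a hotspot in 2 of 5 lung sets and in no other set. Of 56 regions, 3 were lung-only, 24.8 and 21.3 kb upstream and 35.4 kb downstream of the start, and 2 were liver-only, 48.9 and 11 kb upstream. The first lung-only region lies in an exon of the non-coding gene 1700021F13Rik and the third in an intron of Tbx5. The third covered 420 ± 58.3 bp (SD, n = 5), the largest mean of the 3, and its middle 300 bases (mm10, chr5:119867967-119868266, forward strand) are given with capitals for a TEAD motif (GGAATG) and a C/EBP motif (TTGCNNAA, here on the reverse strand).
Tbx5 lung-only region: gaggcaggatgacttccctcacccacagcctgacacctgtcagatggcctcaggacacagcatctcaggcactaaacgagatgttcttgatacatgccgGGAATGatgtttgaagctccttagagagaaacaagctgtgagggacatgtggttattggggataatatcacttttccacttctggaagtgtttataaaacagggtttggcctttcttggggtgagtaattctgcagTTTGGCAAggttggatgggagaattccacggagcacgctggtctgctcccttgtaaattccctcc

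Tbx3 (ENSMUSG00000018604, chromosome 5, 119670669 to 119684724, forward strand) was covered most in liver (117 to 155), where the start was part of a hotspot of 1946 to 8289 bp at the ceiling of the hotspot score in 5 of 5 sets. Lung gave 92.2, 83.1, 137, 75.9 and 125, kidney 33.5 to 49.7 and B cells 10.6 to 24.9. Lung overlapped liver but was lower on average by 0.38 (limma adjusted p = 0.0153), and was above kidney by 1.04 and B cell by 2.00 (adjusted p = 1.18e-06 and 1.29e-11). Against the mean of the other tissues lung was higher by 0.89 ± 0.11 (adjusted p = 4.41e-07). The start was open in 5 of 5 sets of lung, liver and kidney and in 2 B cell sets. The window held 3 liver-only regions, 38.0 to 47.4 kb upstream, and 1 lung-only region 19.2 kb upstream, all within the antisense gene Tbx3os1. The lung-only region covered 246 to 749 bp and holds an NKX2 motif (CAAGTG, in capitals; mm10, chr5:119651334-119651633, forward strand).
Tbx3 lung-only region: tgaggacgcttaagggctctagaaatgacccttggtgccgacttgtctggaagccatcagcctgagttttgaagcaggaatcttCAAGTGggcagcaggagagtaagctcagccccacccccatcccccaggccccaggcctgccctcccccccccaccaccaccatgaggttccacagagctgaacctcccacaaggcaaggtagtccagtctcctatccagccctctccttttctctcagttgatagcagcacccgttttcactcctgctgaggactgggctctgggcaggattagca

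Tbx2 (ENSMUSG00000000093, chromosome 11, 85832551 to 85841948, forward strand) was covered most in kidney, with 187 to 321, followed by lung with 159, 145, 235, 119 and 113, liver with 81.1 to 96.0 and B cells with 44.0 to 55.0. Only the B6xCAST lung set reached into the kidney range. Kidney was above lung by 0.78 (limma adjusted p = 0.000195), lung above liver by 0.73 (adjusted p = 0.000196) and liver above B cell by 0.71 (adjusted p = 0.000184). The lung difference of 0.46 ± 0.12 (adjusted p = 0.00277) was not matched by the gene body alone, at 0.04 (adjusted p = 0.892), or by a flank of 10 kb, at 0.28 (adjusted p = 0.113). The body of Tbx2 was covered over 3368 to 7839 bp in kidney and 390 to 5615 bp in lung. The start was open in all lung, liver and kidney sets and in no B cell set. There were 0 lung-only and 4 kidney-only regions, 3 of them in introns of Bcas3, the gene upstream of Tbx2.

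Tbx4 (ENSMUSG00000000094, chromosome 11, 85886422 to 85916097, forward strand) differed between its window and its own promoters. Over the window kidney was highest (136 to 181), lung gave 107, 126, 190, 106 and 114, and liver (51.8 to 70.7) and B cells (48.1 to 71.6) were lower. Lung did not pass against kidney (-0.30, limma adjusted p = 0.0578), nor liver against B cell (adjusted p = 0.477). The upstream flank reaches into Tbx2 and supplied 7920 to 10803 bp of the kidney coverage but 3338 to 12515 bp in lung. In the gene body, lung was covered over 1497 to 3618 bp and kidney over 369 to 1429 bp, and with the flank reduced to 10 kb the lung difference rose from 0.52 ± 0.10 to 1.26 ± 0.15 (adjusted p = 0.000265 and 1.57e-06).

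Annotated transcripts of Tbx4 begin at 3 places. The most upstream, at the 5′ end of the gene, had a hotspot in 5 of 5 lung sets, 1 liver set and 0 kidney and B cell sets. The start 3641 bp downstream was open in 3 lung, 4 liver, 5 kidney and 2 B cell sets. The start 10343 bp downstream, which is the RefSeq start, was open in 5 of 5 lung sets and none of the other 15, and coincided with the one lung-only region of the window, 381 to 624 bp wide in the lung sets and placed by its middle in an intron of Tbx4. Its RefSeq promoter (chr11:85896515-85896814, forward strand, GRCm38.p6) is given because the lung-only region covers the start. It has no match to the 9 motifs.
Tbx4 downstream start: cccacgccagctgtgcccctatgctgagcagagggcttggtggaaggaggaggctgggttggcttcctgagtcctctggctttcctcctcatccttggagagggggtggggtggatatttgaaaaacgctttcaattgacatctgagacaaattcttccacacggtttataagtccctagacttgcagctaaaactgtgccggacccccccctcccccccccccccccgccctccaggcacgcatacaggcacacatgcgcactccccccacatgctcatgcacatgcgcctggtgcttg

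**Figure D3:**
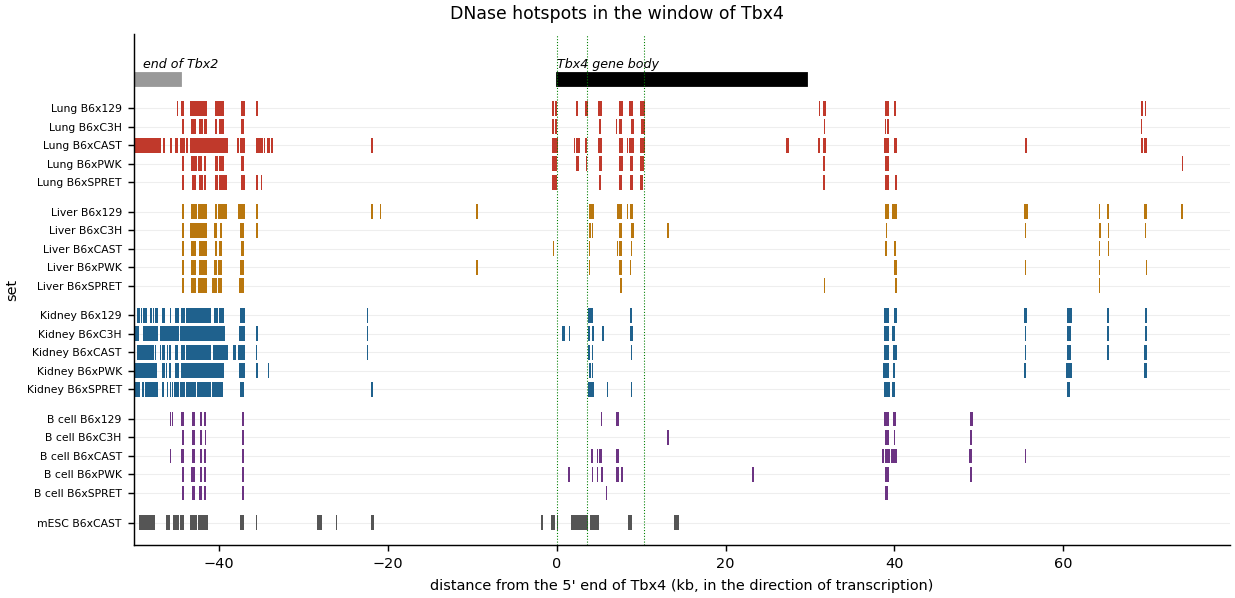
Hotspots (coloured blocks) in the Tbx4 window by distance from the 5′ end of Tbx4 in kb, one line for each of the 20 adult sets and mESC, with the Tbx4 body in black, the end of Tbx2 in grey and the 3 annotated transcript starts as dotted lines. Lung lines carry blocks at the first and the last start in all 5 hybrids. Within 500 bp of the middle start, blocks are present in 5 kidney, 4 liver, 3 lung and 2 B cell lines. The dense kidney blocks to the left span the end of Tbx2 and the DNA just past it.

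Foxf1 (ENSMUSG00000042812, chromosome 8, 121084386 to 121088144, forward strand) had scaled coverages of 125, 103, 149, 113 and 92.5 in lung, 48.9 to 65.2 in liver, 66.4 to 76.8 in kidney and 79.9 to 171 in B cells. In scaled coverage all lung sets were above all liver and kidney sets. Lung and B cell overlapped, and their difference did not pass the test (0.11, limma adjusted p = 0.429). Unscaled, mean bp covered were 8321 in lung, 5639 in B cells, 5531 in kidney and 5497 in liver, and lung sets overlapped every other tissue. The lung difference was 0.55 ± 0.10 over the window (adjusted p = 6.18e-05) and 1.36 ± 0.10 over the gene body with 10 kb on both sides (adjusted p = 2.26e-09). The B cell coverage lay downstream, 2579 to 11020 bp of it, where Foxc2 and Foxl1, other forkhead genes, are annotated, and upstream of Foxf1 B cells had 0 to 763 bp. The window also overlaps the protein-coding genes Mthfsd and Gm20388, and to which gene the B cell coverage belongs was not tested. The start of Foxf1 was open in 5 of 5 lung, liver and kidney sets and in 0 B cell sets, with 1337 to 2792 bp covered within 2 kb of it in lung, 439 to 1314 bp in liver and 540 to 1185 bp in kidney. The 1 lung-only region lies 43.2 kb downstream, within an intron of the gene model Gm20388, and covered 354 to 461 bp.

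Sox17 (ENSMUSG00000025902, chromosome 1, 4490931 to 4497354, reverse strand), of endothelium and early endoderm, was covered at 79.3, 66.2, 66.5, 41.8 and 74.9 in lung, 35.1 to 64.6 in liver, 22.1 to 96.9 in kidney and 0 to 16.4 in B cells. Every set of the 3 organs was above every B cell set, and lung did not pass against liver (0.45, limma adjusted p = 0.0702) or kidney (0.50, adjusted p = 0.0571). The lung difference of 0.98 ± 0.17 (adjusted p = 5.61e-05; exact permutation p = 0.0371) thus combined a large difference from B cells, 2.00, with smaller ones. The start was open in 5 lung, 4 liver, 5 kidney and 1 B cell sets. The window held 1 lung-only region, 40.4 kb downstream, and 2 liver-only regions, 16.8 and 22.8 kb upstream, all between genes.

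**Figure D4:**
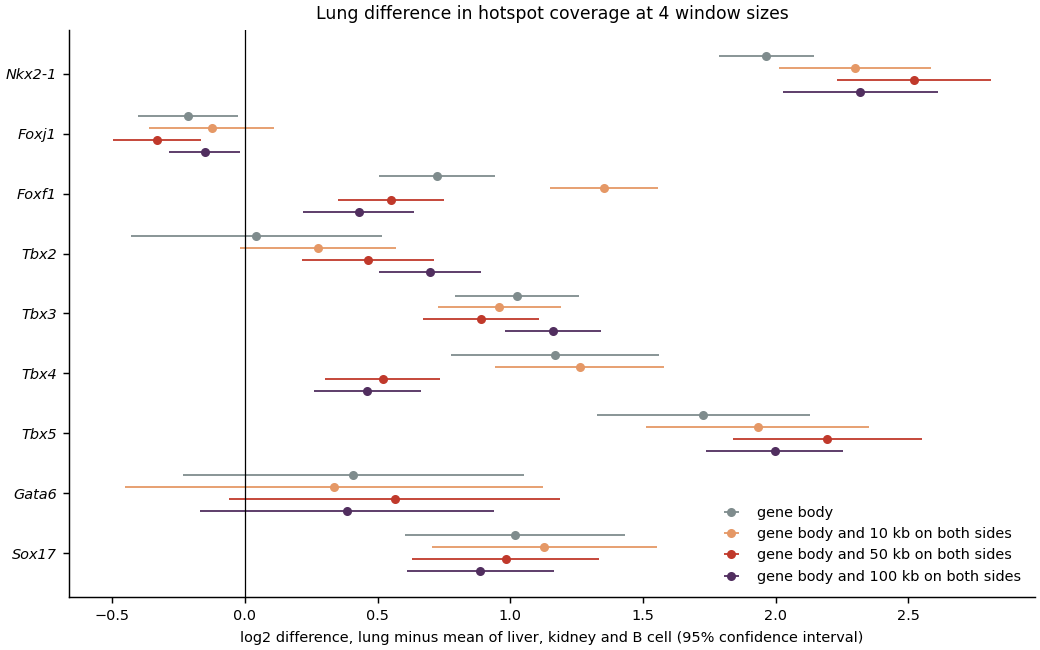
Difference in log2(scaled coverage + 10) between lung and the mean of liver, kidney and B cell for the 9 genes (points) with 95% confidence intervals from limma (bars), for the gene body alone and with 10, 50 and 100 kb on both sides. Nkx2-1 (1.97 to 2.52) and Tbx5 (1.73 to 2.19) stay apart from 0 at every size, Foxf1 and Tbx4 are highest at 10 kb (1.36 and 1.26), and Tbx2 is at 0.04 in the body and 0.70 at 100 kb.

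By the exact permutation, Foxf1 had p = 0.0146 and Tbx2, Tbx3, Tbx4, Gata6 and Foxj1 had p of 0.117 to 0.377. Of the 7 windows called higher by limma, 4 (Nkx2-1, Tbx5, Foxf1 and Sox17) passed 0.05 in this test, and the Foxj1 decrease did not pass. The permutation p are unadjusted, unlike those of limma. This test was run for the 9 windows only, so the share of all windows that would pass is not known. Of 54 differences between pairs of tissues at the 9 loci, 42 passed the limma test. The share of all windows that passed was 58.9% for lung against liver, 44.2% for lung against kidney, 65.9% for lung against B cell, 53.0% for liver against kidney, 72.4% for liver against B cell and 70.2% for kidney against B cell. Across the 20 sets the scaled log2 coverage of Nkx2-1 was most like that of Tbx5 among members (r = 0.86, 20 sets that share tissues and hybrids), and Tbx2 and Tbx4, with shared windows, had r = 0.90. Foxj1 and Tbx3 ran opposite (r = -0.91).

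At the level of starts, all 9 members had a hotspot in 5 of 5 lung sets, as had 58.7% of all protein-coding genes. Members separated by the other tissues. The starts of Nkx2-1, Tbx4 and Tbx5 were open in 5, 6 and 6 of 20 sets, those of Foxf1, Tbx2 and Sox17 in 15, Tbx3 in 17, Gata6 in 19 and Foxj1 in 20. These counts depend on what is taken as the start. At the first base alone 6 members were open in all 5 lung sets, beside 51.8% of all protein-coding genes. Foxf1 was open there in 9 of the 20 sets, Sox17 in 6 and Gata6 in 12. Tbx4 and Tbx5 were open at the first base in the 5 lung sets and no other, beside 0.290% of all genes, and Nkx2-1 in 4 lung sets. With hotspots at FDR 1%, Nkx2-1 was open in 4 lung sets and Tbx5 in the 5 lung sets alone. With every annotated protein-coding transcript start Tbx4 was open in 16, and 0 members were open in lung alone, beside 0.271% of all genes. The starts of Nkx2-1 and Tbx5 had the fewest CpG (12), Gata6 had 14 and Tbx4 17, and the others had 22 to 37.

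**Figure D5:**
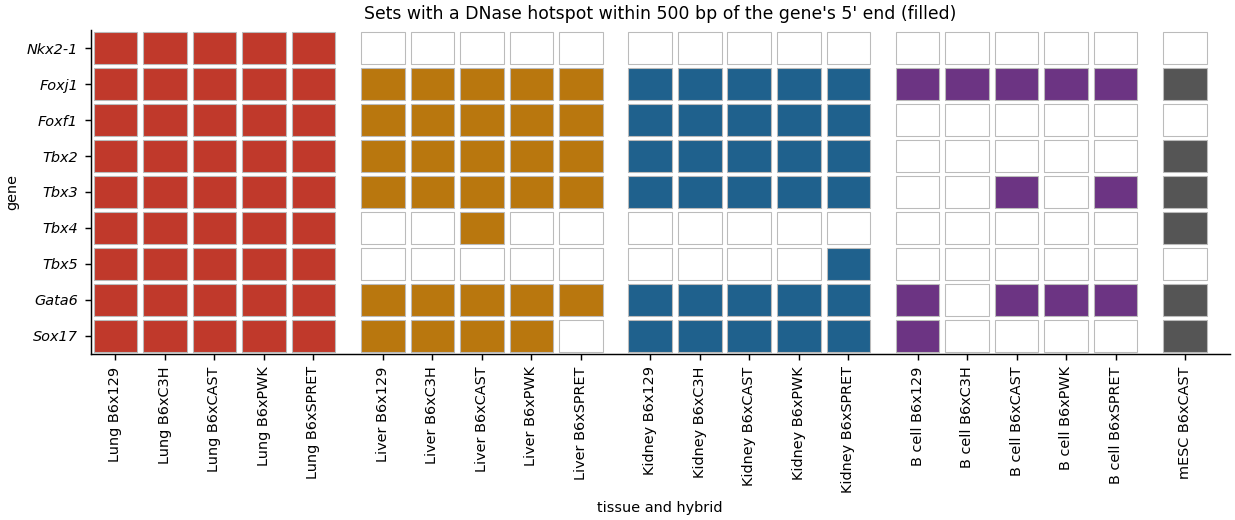
Presence (filled) or absence (white) of a DNase hotspot within 500 bp of the 5′ end of each of the 9 genes, with the 20 adult sets and mESC on the horizontal axis, coloured by tissue. The lung columns are filled for all 9 genes, and Nkx2-1 has no filled cell outside lung.

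Over the 9 windows 406 distinct regions were found, of which 137 were seen in 1 set only. Lung-only regions made up 11 of the 406, with 12 liver-only, 8 kidney-only and 1 B cell-only. Over all regions of the genome the shares were 1.47% for lung, 3.03% for liver, 1.99% for kidney and 0.334% for B cell. The 11 lung-only regions were in introns (6), an exon (1) and between genes (4), and 0 of 11 overlapped an mESC DNase or CTCF hotspot, beside 4.07% and 1.33% of the 10968 lung-only regions of the genome. Regions open in all 20 sets numbered 16, against a genome share of 3.77%, and 16 of 16 overlapped an mESC DNase hotspot and 13 a CTCF hotspot, beside 89.0% and 67.2% of the 28096 such regions of the genome.

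The middle 300 bases of regions were searched on both strands for 9 short motifs, whose matches did not overlap in the sequences shown. The NKX2 motif (CAAGTG) was present in 19.0% of all regions and in 30.4% of the 10968 lung-only regions. The forkhead motif (TGTTTAC) was present in 5.59% and 9.66% of them and the TEAD motif (GGAATG) in 17.7% and 25.2%. Matches to C/EBP (TTGCNNAA) were found in 14.9% and 20.4%, and matches to AP-1 (TGANTCA) in 11.2% and 16.6%. Shares differed less for the T-box motif (AGGTGTG), at 6.48% and 7.05%, and for the GATA motif (AGATAA), at 16.6% and 16.2%. The SOX motif (ACAATGG) was found in 4.27% and 5.02% of regions, and the ETS motif (CCGGAAG) in 1.62% and 1.46%. Among the 11 lung-only regions of the 9 loci, 3 had a TEAD, 3 a C/EBP, 2 an NKX2, 2 a forkhead, 2 a GATA and 1 an AP-1 match, and 0 a T-box, SOX or ETS match. These are matches of letters, described without a test.

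Between hybrids, 0 of 45 differences at the 9 loci (each hybrid against the other 4, over tissues) passed limma's adjusted threshold, with 4 at an unadjusted p under 0.05 and a smallest adjusted p of 0.183 (Sox17 in B6xC3H). Among all windows 0.0232% passed for B6x129, 0.0325% for B6xC3H, 0.135% for B6xCAST, 0.223% for B6xPWK and 0.441% for B6xSPRET. In lung, B6xC3H was the lowest of the hybrids in bp covered at Nkx2-1 (2588), Foxj1 (2558), Foxf1 (4504), Tbx2 (6346), Tbx3 (3638), Tbx4 (5523), Tbx5 (1728) and Gata6 (1998), and had the smallest lung set. After scaling it was lowest at Nkx2-1, Foxj1, Tbx5 and Gata6.

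In mESC, the 9 windows held 2 to 32 DNase hotspots. Tbx2 had 32 over 14813 bp and Tbx4 26 over 12368 bp, and Nkx2-1 had 2 over 153 bp. The starts of Foxj1, Tbx2, Tbx3, Tbx4, Gata6 and Sox17 were open in mESC, 6 of 9, and those of Nkx2-1, Foxf1 and Tbx5 were not, beside 62.9% of all protein-coding starts. The Tbx4 start was thus open in mESC and in lung but in 1 of the other 15 adult sets. CTCF hotspots numbered 2 (Gata6) to 14 (Tbx2) per window, and lay at 4 of 9 starts (Foxj1, Tbx2, Tbx3 and Gata6), beside 21.3% of all protein-coding starts.

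RNA-seq was available for 4 lung, 4 liver, 4 kidney and 5 B cell samples. Totals were low, at 283725 to 809337 expected counts. Counts were low also for abundant transcripts (Gapdh 13.7 to 19.4 in lung, Alb 95 to 767 in liver). For each of these samples the paper lists far more nonredundant reads than the total of expected counts. The totals are therefore not the sequencing depth, and low counts here cannot be read as low expression. Why the totals are so much smaller was not tested. Lung, liver and kidney samples came from B6xC3H, B6xPWK and B6xSPRET, the last with 2 samples in each tissue. B cells, with 2 samples of B6xPWK, also had B6xCAST, and B6x129 had no RNA sample. The main edgeR fit had no hybrid term. Nkx2-1 had expected counts of 14, 12, 13 and 8 in the 4 lung samples, 0 in all liver and kidney samples and at most 1 in B cells. Sox17 had 8 to 15 in lung and 0 to 2 elsewhere, Foxf1 12 to 15 and 0 to 2, and Tbx3 7 to 20 and 0 to 2. Tbx2 had 2, 8, 8 and 8 in lung, 2 to 9 in kidney, and at most 1 in liver and 0 in B cells. Gata6 had 1 to 4 in lung and up to 3 in kidney and B cells, and Foxj1, Tbx4 and Tbx5 had at most 2 in any sample. Foxf1 alone passed the filter on low counts, and only through its lung samples, so that a higher value in lung was set by the filter. Its fitted difference was 3.72 on the log2 scale (edgeR, adjusted p = 8.15e-07), where 29.6% of the 4479 genes tested were called higher. Without the filter edgeR called 6 members higher (Nkx2-1, Sox17, Tbx3, Foxf1, Tbx2 and Foxj1), beside 13.5% of 28412 genes, and the call of Foxj1 rests on 0, 1, 1 and 2 counts in lung against 0 elsewhere. Gm16063, a non-coding gene of the Tbx3 window, had 12 to 35 counts in lung and at most 2 elsewhere. How strand was used in the counting is not given in the sources used here, and reads of a gene and of a partner on the opposite strand cannot be told apart. With this limit, counts assigned to Tbx3 were highest in lung, and the scaled coverage of its window was highest in liver.

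Other transcription factors of the lung were counted from a list of 40 genes, of which Foxc2 and Foxl1 lie in the Foxf1 window. Their windows were higher in lung in 24 and lower in 6, beside the 22.3% and 28.7% of all windows, with a median difference of 0.44. The 3 largest increases were at Foxa1, a forkhead factor of endoderm (1.77 ± 0.23), Gli3, of hedgehog signalling (1.68 ± 0.13), and Tcf21, of mesenchyme (1.30 ± 0.16), with limma adjusted p of 1.2e-06, 1.45e-09 and 8.55e-07. Decreases included Prox1, of lymphatic endothelium and hepatocytes (-1.07 ± 0.17), and Gata3 (-0.72 ± 0.19), with adjusted p of 1.65e-05 and 0.00272. Of lineage factors of the other organs, windows were higher in lung in 1 of 7 for liver, 1 of 9 for kidney and 1 of 9 for B cell, and lower in 5, 7 and 5.

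The windows outside the loci that were most alike over the 20 sets were those of Krt34 and Krt31 for Nkx2-1 (r = 0.97 for both), Emp2 and Ppp1r3a for Tbx5 (0.95 and 0.94), Adamts19 and Ntrk2 for Tbx3 (0.96 for both), Tinag and Kcnc2 for Tbx2 (0.97 and 0.96), Cystm1 and Wscd1 for Tbx4 (0.96 and 0.95), Nin and Cd93 for Foxf1 (0.90 and 0.89), U90926 and Dner for Gata6 (0.89 and 0.87), Mamld1 and 4930578I06Rik for Sox17 (0.94 and 0.90) and Slurp1 and B3gnt7 for Foxj1 (0.97 and 0.96). These are correlations of log2 scaled coverage, given without a test, over sets that share tissues and hybrids.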

How the data were processed

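Per the methods and labels, the authors trimmed reads with Trimmomatic, mapped them with BWA to mm10 and to strain genomes, and called DNase hotspots at FDR 5% on pooled replicates with hotspot2. The deposited files give each hotspot's position and the −log10 of its FDR, capped at 100, which belongs to its own set and was used for the stricter subsets and to say where a start reached the cap. For RNA-seq, the authors mapped with STAR and deposited RSEM expected counts and TPM per gene. The hotspot files hold no read depth. Coverage was scaled to the extent of hotspots in each set, which is not a measure of depth. The analyzed reads that the paper gives for each set were not used.

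The 9 genes, the other lists and the tests were chosen with earlier results of these data known. Coverage of each window (log2(bp per Mb + 10); windows with a hotspot in at least 5 of 20 sets) was fitted with limma 3.58.1 (hybrid and tissue terms, trend), adjusted over all windows by Benjamini-Hochberg. RSEM values, once rounded to whole numbers, went into edgeR 4.0.16 (TMM, filterByExpr, quasi-likelihood; DESeq2 1.42.0 as an alternative). Both fits were tested on simulated data. All 9 members are named. Other lung factors are counted, with the 3 largest called differences in each direction named, and the 2 most alike windows at least 1 Mb away and the lung-only region with the largest mean bp were named for each member. A few items that fall under these rules are not reported here. Promoter sequences of 2 members were matched in RefSeq by symbol, and the rest read from the mm10 assembly. Where labels name no separate animals, p-values of tissue contrasts in coverage rest on how tissue differences vary between hybrids. That spread was shared by all 4 tissues and moderated over all windows, so it is not that of a single tissue or pair. P-values of hybrid contrasts take the 4 tissues as repeats. RNA p-values measure the spread between samples, with no hybrid term in the main fit. Alternatives were other pseudocounts, flanks, subsets of hotspots, filters and leaving out each hybrid.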

Additional observations from a re-analysis of the deposited data

Results flagged for a closer look

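The Tbx4 window had 2 sets that stood apart from the other hybrids of their tissue (gap to the nearest set over the whole range above 0.71 for 5 sets). In lung, B6xCAST had 190 bp covered per Mb against 106 to 126 in the other 4 hybrids. In B cells, B6xSPRET had 48.1 against 65.4 to 71.6. These are 2 of 36 groups examined, and chance alone sets apart about 1 in 20 groups. Without B6xCAST the lung difference at Tbx4 was 0.38 (limma adjusted p = 0.00532). At Tbx2, whose window shares 55527 bp with it, B6xCAST was also the highest lung set (235).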

How the results depend on the processing

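The 7 windows higher in lung numbered 5 to 8 over the limma alternatives, and the 42 tissue differences 41 to 44. By the exact permutation within hybrids, 4 of the 7 passed at an unadjusted p below 0.05, without Tbx2, Tbx3 and Tbx4. Among all windows, 4800 were called higher in the main fit and 5177 with the 75000 highest-scoring hotspots. That number was 2234 without scaling to the set and 3154 when hotspots were counted, the settings that gave 5 members. Nkx2-1, Tbx5, Tbx3 and Sox17 passed under all 17 alternatives (Nkx2-1 from 1.34 to 3.37, Tbx5 from 1.12 to 3.29). Counting hotspots in place of bp ended the calls of Foxf1 (limma adjusted p = 0.0552), Tbx4 (0.370), Tbx2 (0.219) and Foxj1 (0.0659), and no scaling to the set ended those of Tbx4 (0.44, adjusted p = 0.0531), Tbx2 (0.38, 0.116) and Foxj1 (-0.41, 0.0599), with differences close in size to 0.52, 0.46 and -0.33, while moving the median of all windows from -0.04 to -0.12. Tbx2 also lost its call without hotspots at starts (0.0782), and Foxj1 in the gene body alone (0.0573) and with 100 kb on both sides (0.0529). Gata6 passed under 3 alternatives, as number of hotspots (0.59, adjusted p = 0.0432), without starts (0.94, 0.00749) and without B6xC3H. With only the 75000 highest-scoring hotspots of each set, 5 in place of 9 starts were open in all 5 lung sets, beside 51.5% of all protein-coding genes. Nkx2-1 was then open in 3 sets, Tbx4 and Tbx5 in 2 and Sox17 in 5. Under this setting 2 in place of 11 regions were lung-only, beside 3.08% of all regions. Asking for at least 4 of 5 lung sets gave 22 regions, beside 2.53% of all regions. Leaving out 1 hybrid gave 12 to 19, beside 1.80% to 2.29% of all regions, with 19 without B6xC3H, the smallest lung set. RNA called 1 member with the filter, 6 without it, and 1 to 2 when 1 lung sample was left out, 2 without either B6xSPRET sample. Hybrid was a block in the coverage fit, and no hybrid block left 7 windows higher. In all, 245 values kept their direction and side of the threshold or, for counts, stayed near the main count, where 5 windows in place of 7 was taken as near. Another 22 counts moved, 13 calls were lost and 3 were gained. Direction was followed only for lung against the other tissues and for Foxf1 RNA, and none of these reversed. The causes were not tested.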
